A study of Nannochloropsis oceanica with 18 samples.

Results

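The response of a strain of Nannochloropsis oceanica labelled as overexpressing the nuclear gene NO07G02030 (OE) to high light was examined by RNA sequencing. Its members are 6 of the 18 libraries of the series: 3 cultures at high light (HL_OE, a photon flux near 300 µmol per square metre and second) and 3 at normal light (NL_OE, near 50). Libraries were assigned by the strain and light level in their labels. All cultures were of strain IMET1 and were kept in flasks at a fixed light level for 8 days. The same 2 light levels were applied to a strain labelled as a knockout of NO07G02030 (KO; HL_KO and NL_KO) and to the wild type (WT; HL_WT and NL_WT), with 3 libraries in each group. The labels call the 3 cultures of a group biological replicates. The sources used here do not say how the OE and KO strains were made or how many independent lines stand behind each label.

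Nannochloropsis is a unicellular marine alga with a plastid derived from a red alga, and it stores oil. In such algae light beyond what photosynthesis can use damages the D1 protein of photosystem II, which has to be replaced, and cells adjusted to strong light usually hold less light-harvesting pigment and more photoprotective capacity. Most proteins of these processes are encoded in the nucleus. A small set of core subunits, ribosomal proteins and chaperones is encoded in the plastid and mitochondrial genomes. Here the 10333 nuclear genes carry IDs without names or functions in the tables and the reference, and the cell type given in the labels could not be checked against markers. Symbols were available for the 125 genes of the plastid and the 35 of the mitochondrion.

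The 6 libraries were of even depth, with total counts of 17132210 to 18156737 and 9803 to 9827 genes at 10 counts or more. Replicates lay close together. Pearson correlations of log2 CPM (counts scaled to the library total with TMM factors) between them were 0.990 to 0.995. The biological coefficient of variation was 7.72%, against 31.2% in the 6 KO-labelled and 23.6% in the 6 WT libraries. Replicates were not copies of each other, since counts of replicate pairs differed by 5.86 to 17.5 times the variance that sampling alone would give (chi-square per degree of freedom).

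NO07G02030 itself, the gene named in the labels, stood at 27.7, 26.4 and 25.4 TPM in HL_OE and at 26.2, 27.2 and 29.5 TPM in NL_OE. TPM, the deposited measure of level, is scaled for gene length and library total. The ranges overlapped, and edgeR gave a log2 fold change of -0.09 (SE 0.07, adjusted p = 0.402). WT libraries held 18.3 ± 5.78 TPM at high light and 29.1 ± 3.11 TPM at normal light (mean ± SD, n = 3). KO libraries held 23.3 ± 3.69 TPM at high light and 21.8 ± 9.83 TPM at normal light, so the transcript was also present in the strain labelled knockout. At normal light it was no higher in the strain labelled overexpression than in WT. At high light every OE-labelled library was above every WT library (11.7, 21.0 and 22.2 TPM in HL_WT), a difference not tested here. Because it is not known how the strains were made, the transcript level cannot settle either label. OE and KO are used below as labels only.

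High light changed many genes of the OE-labelled strain by small amounts. Of 9827 genes tested, 1034 rose (10.5%) and 1123 fell (11.4%) in HL_OE against NL_OE, together 2157 or 21.9% (edgeR's quasi-likelihood test on these 6 libraries, Benjamini-Hochberg adjusted p under 0.05). The median size of a called change was 1.26-fold. Changes of at least 2-fold were called for 29 genes that rose (0.295%) and 67 that fell (0.682%). Changes between 1.5-fold and 2-fold were called for 104 genes that rose and 112 that fell, and the remaining calls were smaller. In such bulk cultures a change in the make-up of the culture and a change of RNA within cells cannot be told apart. The values of the 3 high light and 3 normal light libraries did not overlap in 1009 of the 1034 genes that rose and 1118 of the 1123 that fell. Such separation was common, at 3938 genes or 40.1% of all tested.

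**Figure D1:**
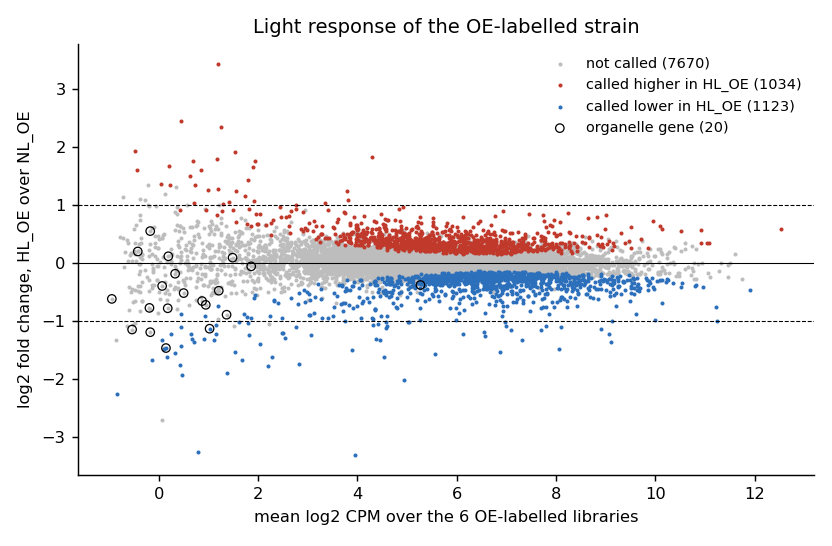
Each point is a tested gene, with its mean log2 CPM over the 6 OE-labelled libraries on the x axis and its log2 fold change (HL_OE over NL_OE) on the y axis. Red points are the 1034 genes called higher, blue points the 1123 called lower, open circles the 20 tested organelle genes and dashed lines mark 2-fold. Most called genes lie within 2-fold, and more of those beyond it are lower than higher.

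The count of calls depended on how the spread was estimated and on single libraries. Fitted with 1 shared spread over all 18 libraries, 33 genes were called (11 higher, 22 lower), all of them among the 2157 and in the same direction. Tested against a change of 1.5-fold instead of 0, 37 were called (4 higher, 33 lower). The count was 1275 and 1226 without HL_OE replicate 1 and 2, and 1218 and 1148 without NL_OE replicate 2 and 3. Rises made up 47.9% of calls, and 58.0% when limma was run on log2(TPM + 1).

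Among called nuclear genes with at least 10 CPM in the higher group and no overlap of the light levels, NO20G02440 rose most. It stood at 17.4, 18.5 and 10.97 TPM in HL_OE and at 5.47, 3.63 and 3.96 TPM in NL_OE. That every high light library was above every normal light library was a condition of the choice. The rise was 3.54-fold on average (edgeR log2 fold change 1.82, SE 0.21, adjusted p = 0.000823). In KO it stood at 20.8, 12.003 and 15.7 TPM in HL_KO and 3.66, 5.38 and 2.85 TPM in NL_KO, also without overlap (edgeR log2 fold change 1.98, SE 0.35, adjusted p = 0.407). In WT it stood at 5.81, 7.60 and 6.59 TPM in HL_WT and 8.06, 8.18 and 3.75 TPM in NL_WT, which overlapped. The response of OE exceeded that of WT by 1.93 on the log2 scale (SE 0.45, adjusted p = 0.0256, edgeR). NO04G01220 followed, with 10.2, 10.9 and 8.48 TPM in HL_OE and 3.59, 3.56 and 5.15 TPM in NL_OE. Its groups were apart by the same condition (edgeR log2 fold change 1.24, SE 0.16, adjusted p = 0.0011), but it was not called against a 1.5-fold change (adjusted p = 0.0624).

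The largest fall by the same rule was that of NO26G01820. It stood at 1.90, 1.99 and 1.77 TPM in HL_OE and at 12.8, 28.5 and 13.7 TPM in NL_OE, so that high light libraries were tight and low while normal light libraries were spread and high (edgeR log2 fold change -3.31, SE 0.34, adjusted p = 0.000547). The other groups of the series averaged 2.24 ± 1.59 TPM in HL_KO, 2.35 ± 0.28 in NL_KO, 1.88 ± 0.66 in HL_WT and 3.02 ± 0.86 in NL_WT. NL_OE was thus the highest of the 6 groups, and HL_OE lay within the range of the other strains. NO03G01840 stood at 6.03, 5.50 and 5.23 TPM in HL_OE and at 18.5, 24.5 and 23.9 TPM in NL_OE (edgeR log2 fold change -2.03, SE 0.12, adjusted p = 4.67e-05). In the WT libraries this ID was called lower at high light too (edgeR log2 fold change -1.67, SE 0.28, adjusted p = 0.043), while in KO it had -0.53 (SE 0.35, adjusted p = 0.7).

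**Figure D2:**
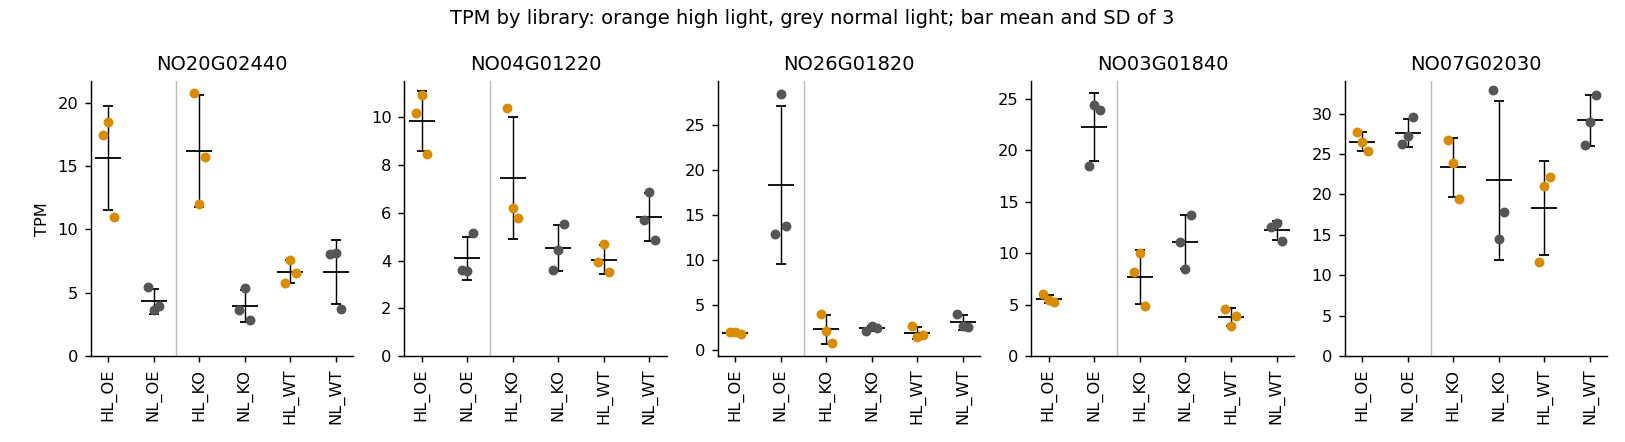
TPM (y axis) of NO20G02440, NO04G01220, NO26G01820, NO03G01840 and NO07G02030 in each library, by group on the x axis, orange for high and grey for normal light; bars are mean and SD of 3. The first 4 IDs, chosen on this condition, separate HL_OE from NL_OE, NO07G02030 does not, and NO26G01820 is highest in NL_OE.

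Rises and falls were spread unevenly over the range of transcript levels. Of the 1966 tested genes with the highest mean TPM (116.7 to 5211), 220 rose and 412 fell. Of the 1966 with the lowest (0.265 to 22.98 TPM), 213 rose and 124 fell. The share called was 32.15% in the abundant and 17.1% in the rare class. The median log2 fold change was -0.04 in the abundant and 0.07 in the rare class. With limma on log2(TPM + 1) the abundant class had 252 higher and 342 lower, and the rare class 173 and 72. The difference between the classes was not tested. Among the 100 most abundant transcripts (929 to 5211 TPM) 12 rose and 17 fell, against 10.5% and 11.4% of all tested genes. Together the 100 made up 15.95% ± 0.0715 of all TPM in HL_OE and 15.96% ± 0.251 in NL_OE (SD, n = 3). The most abundant gene, NO15G03200, averaged 5193 ± 993 TPM in HL_OE and 5229 ± 792 TPM in NL_OE and was not called. NO09G00450 was the most abundant called gene, and both were picked out after their values were seen. NO09G00450 stood at 5418, 6398 and 6274 TPM in HL_OE and at 3717, 3960 and 4220 TPM in NL_OE, without overlap (edgeR log2 fold change 0.58, SE 0.10, adjusted p = 0.00364).

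Called genes were found in all 30 ID series, at 19% to 29% of the tested IDs of a series. A search of the results for runs of at least 10 neighbouring tested IDs, all with log2 fold changes of -0.5 or below, found 2 stretches. They have no test of their own. At the start of series NO30, from NO30G00010 to NO30G00200, all 12 tested IDs had log2 fold changes between -1.93 and -1.08, and 10 of them were called. Near the end of series NO09, from NO09G04100 to NO09G04270, all 10 tested IDs lay between -1.68 and -0.96, and 9 were called. Together they held 19 of the 67 falls of at least 2-fold. Each stretch held 8 more IDs that were not tested, and IDs with few counts could pass the filter through normal light alone.

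The summed level of the NO30 stretch was 32.4, 31.1 and 29.9 TPM in HL_OE and 109, 68.0 and 74.3 TPM in NL_OE. That of the NO09 stretch was 27.3, 25.2 and 24.9 TPM in HL_OE and 84.5, 47.0 and 52.7 TPM in NL_OE. In both stretches the high light libraries were alike and below all normal light ones, and NL_OE replicate 1 was the highest. Lower sums at high light follow from the rule of the search. Single IDs were low, with group medians of 3.20 and 4.11 TPM in NL_OE for the NO30 and NO09 stretch. Counts that were not whole numbers, as a read shared between genes leaves them, made up 15% and 13% of values there. The share over all genes in these 6 libraries was 3.6%. Such counts lay in 4 IDs of the NO30 and 3 of the NO09 stretch, so at least those IDs are uncertain. In the KO libraries log2 fold changes were negative for 9 of 11 NO30 IDs and 7 of 10 NO09 IDs (medians -0.61 and -0.38), and in WT for 11 of 11 and 9 of 10 (medians -1.21 and -0.82). Of these IDs 0 were called in WT or KO by edgeR, and for 0 of them was the difference between the OE and WT responses called.

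**Figure D3:**
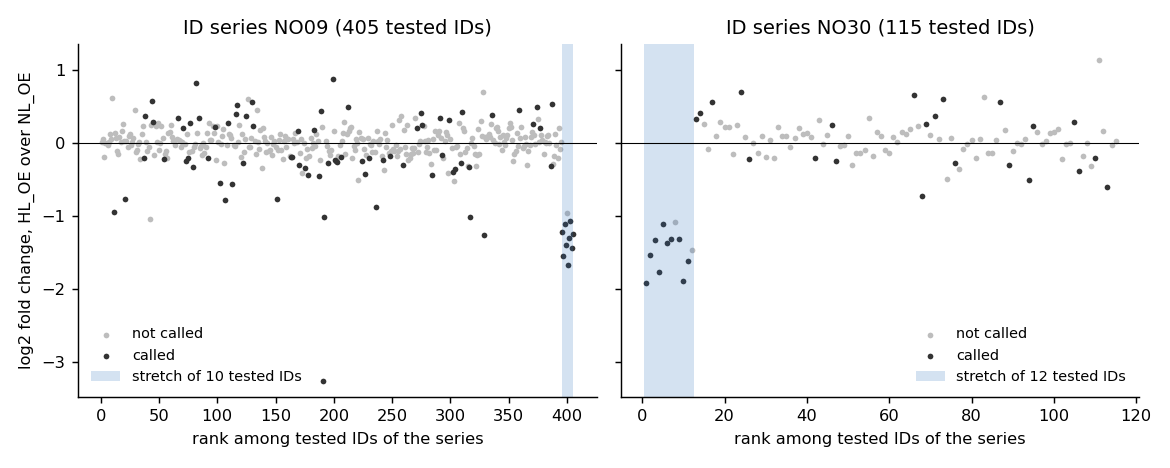
Log2 fold change (HL_OE over NL_OE, y axis) of every tested ID of series NO09 and NO30 against its rank among tested IDs of the series (x axis); dark points were called and the shaded band marks the stretch. The 10 and 12 tested IDs in the bands sit near or below -1, while most others lie near 0.

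Organelle genes gave few counts. RNA was selected by its poly(A) tail, and a change in organelle transcripts cannot be told apart from a change in how many of them were captured. Of the 160 organelle genes 20 passed the filter on low counts, 140 did not, and 34 of those had 0 counts in all 6 libraries. Of the 20, 2 were called, both in the plastid and both lower, where 11.4% of all tested genes were lower. All 12 tested plastid genes had negative log2 fold changes (median -0.75, against 0.01 over all genes tested). Some with few counts, such as tufA and ftsH, passed the filter only through normal light, where they were higher. The shared negative sign is thus partly set by the filter. The 8 tested mitochondrial genes split into 4 positive and 4 negative (median 0.01).

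The plastid gene dnaK, which encodes a chaperone of the Hsp70 family, had 22, 19 and 23 counts in HL_OE and 54, 36 and 49 counts in NL_OE (edgeR log2 fold change -1.13, SE 0.25, adjusted p = 0.0122). The plastid gene tufA, the elongation factor of plastid translation, had 9, 6 and 13 counts in HL_OE and 28, 31 and 18 in NL_OE (edgeR log2 fold change -1.47, SE 0.38, adjusted p = 0.0224). In both genes every high light library was below every normal light library. As tufA passed the filter on low counts only through normal light, its fall and its separation are partly tied to that filter. Both calls, dnaK given first, were lost in the edgeR fit of all 18 libraries (adjusted p = 0.943 and 0.835) and against a 1.5-fold change (0.678 and 0.724). They were also lost with limma on log2(TPM + 1) (adjusted p = 0.055 and 0.0569) and log2(TPM + 0.1) (0.0578 and 0.0631), but not on log2(TPM + 1) without a filter (0.0225 and 0.0274). The call of tufA was lost without HL_OE replicate 1 or 2 or NL_OE replicate 1 or 2 (adjusted p = 0.0569 to 0.0824, edgeR). The call of dnaK was lost without HL_OE replicate 2 (adjusted p = 0.0504, edgeR).

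The photosystem genes were not called. psbA, which encodes D1 and is the most abundant organelle transcript, stood at 56.9, 38.0 and 97.2 TPM in HL_OE and at 45.3, 30.1 and 171 TPM in NL_OE. The groups overlapped, with replicate 3 the highest in both (edgeR log2 fold change -0.38, SE 0.70, adjusted p = 0.745), and without NL_OE replicate 3 the value was 0.73. Photosystem II as a whole (19 genes, 4 tested) had 562, 381 and 1042 counts in HL_OE and 495, 334 and 1784 in NL_OE, most of them from psbA. Photosystem I (9 genes, psaA and psaB tested) had 35, 34 and 78 counts in HL_OE and 79, 43 and 114 in NL_OE. rbcL, the large subunit of Rubisco, had 15, 22 and 55 counts in HL_OE and 52, 32 and 85 in NL_OE (edgeR log2 fold change -0.89, SE 0.46, adjusted p = 0.198). These lists also overlapped between the light levels.

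Other plastid roles were close to the floor of detection. The 43 ribosomal protein genes together had 34, 23 and 42 counts in HL_OE and 35, 32 and 43 in NL_OE, and 0 of them were tested. The 4 RNA polymerase genes had 1, 2 and 3 counts in HL_OE and 6, 5 and 4 in NL_OE, too few for a test though without overlap. The 7 ATP synthase genes had 7, 9 and 26 counts in HL_OE and 25, 21 and 33 in NL_OE, the 8 cytochrome b6f and electron carrier genes 4, 5 and 18 in HL_OE and 19, 6 and 13 in NL_OE. The 4 chlorophyll synthesis genes had 9, 4 and 12 counts in HL_OE and 8, 12 and 10 in NL_OE. Of these 5 roles, 1 gene passed the filter, atpA of the ATP synthase, and it was not called (edgeR log2 fold change -0.62, SE 0.56, adjusted p = 0.462). The other genes had too few counts to be tested.

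In the mitochondrion, the 14 respiratory chain genes (6 tested) had 152, 124 and 257 counts in HL_OE and 170, 150 and 174 in NL_OE. cox1, a core subunit of cytochrome c oxidase, averaged 4.44 ± 1.98 TPM in HL_OE and 4.57 ± 0.70 TPM in NL_OE, with overlapping libraries. cob, which encodes cytochrome b, had 15, 13 and 21 counts in HL_OE and 11, 12 and 10 in NL_OE. Its groups did not overlap, but it was not called (edgeR log2 fold change 0.55, SE 0.33, adjusted p = 0.272). As a share of all counts, here without TMM factors, plastid genes made up 50.0 ± 24.9 CPM in HL_OE and 69.4 ± 47.5 CPM in NL_OE (two-sided exact permutation p = 0.6, and 0.9 adjusted over 3 values). Mitochondrial genes made up 14.7 ± 6.89 CPM in HL_OE and 13.97 ± 1.42 CPM in NL_OE (exact permutation p = 1, and 1 adjusted). These tests treated the cultures as unpaired, and for 3 against 3 the smallest possible p is 0.1.

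**Figure D4:**
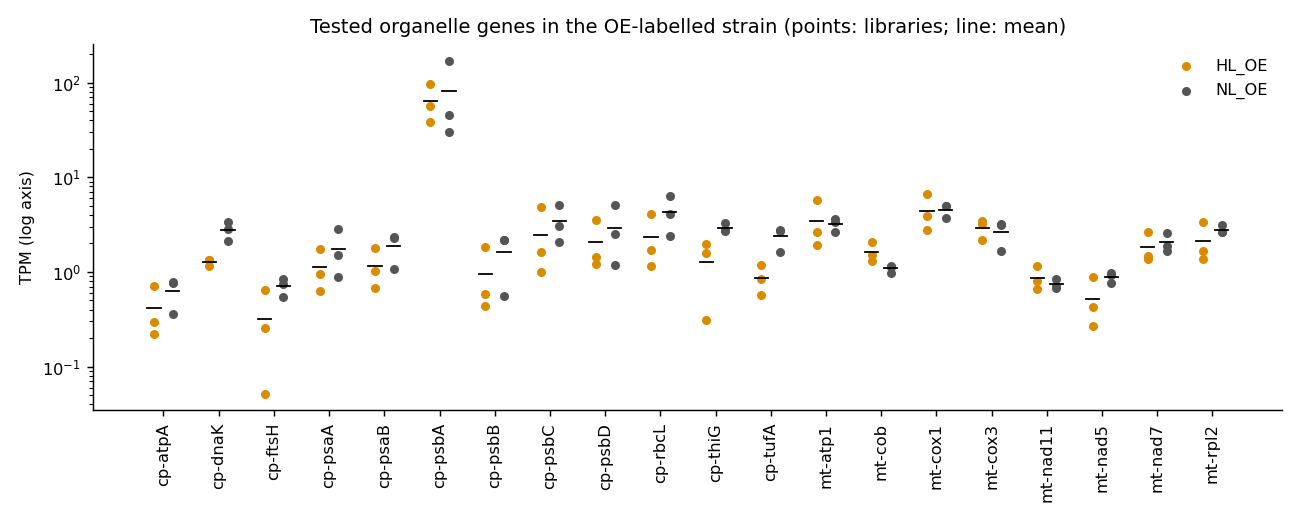
TPM (y axis, log scale) of the 20 organelle genes tested (x axis; cp plastid, mt mitochondrion), with HL_OE libraries in orange to the left of NL_OE libraries in grey and the group mean as a line. Apart from psbA all genes lie under 10 TPM, and dnaK and tufA are the 2 that were called.

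The genes called in the OE-labelled strain were then read in the other strains, whose libraries took no part in choosing them. Fold changes there come from a fit of each strain's own 6 libraries. Of the genes that rose in HL_OE, 741 of 1029 measured in KO (72.0%) and 610 of 1030 in WT (59.2%) also had a positive log2 fold change, while among all tested genes it was 49.5% in KO and 52.2% in WT. Of the genes that fell in HL_OE, 866 of 1122 (77.2%) were negative in KO and 644 of 1120 (57.5%) in WT, against 50.5% and 47.8% of all tested. Median log2 fold changes of the genes that rose were 0.23 in KO and 0.11 in WT. Those of the genes that fell were -0.26 in KO and -0.08 in WT. With any 1 library of those strains left out, the share of rises with the same sign stayed between 64.4% and 79.7% in KO and between 56.6% and 59.7% in WT. For falls it was 71.4% to 87.7% in KO and 53.2% to 64.8% in WT.

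Across the genes called in OE, log2 fold changes correlated with those in KO at a Pearson r of 0.57 (Spearman 0.57, 2151 genes) and with those in WT at 0.15 (Spearman 0.20, 2150 genes). Over all tested genes r was 0.35 for KO and 0.01 for WT. These are descriptions across genes of the same libraries, and genes are not independent replicates. Few of the genes were called in the other strains themselves: 0 in KO, and in WT 10 higher and 16 lower of the genes that rose, and 1 higher and 35 lower of the genes that fell. In their own fits edgeR called 0 of 9713 genes in KO, with 733 at an unadjusted p under 0.05, and 211 of 9683 in WT (2.18%).

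The same could be read library by library, as the median over genes of the log2(CPM + 1) value minus the mean at normal light in that strain. For the genes that rose in HL_OE it was 0.27, 0.18 and 0.24 in HL_KO and -0.06, 0.08 and -0.02 in NL_KO, with no overlap. In WT it was 0.07, 0.12 and 0.09 in HL_WT and 0.01, 0.05 and -0.06 in NL_WT, also apart but by less. For the genes that fell it was -0.24, -0.21 and -0.25 in HL_KO and 0.02, -0.08 and 0.04 in NL_KO. In WT it was -0.04, -0.13 and -0.08 in HL_WT and -0.002, -0.05 and 0.05 in NL_WT, which overlapped.

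Rises of at least 2-fold had mostly negative values in WT. Of the 29, 26 were measured in each strain, and 0 were called in WT or KO. Of the 26, 6 had a positive log2 fold change in WT (median -0.76) and 17 in KO (median 0.60). Falls of at least 2-fold were negative in 57 of 65 measured in WT (median -0.94, 5 called lower) and in 58 of 67 in KO (median -0.87, 0 called). This subset was added after the data were seen.

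**Figure D5:**
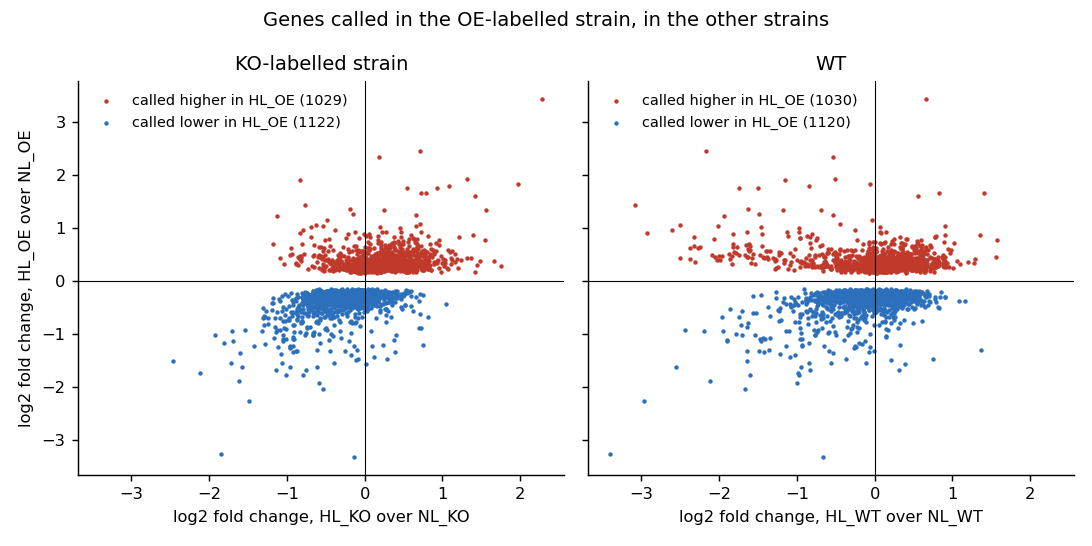
Log2 fold change of HL_OE over NL_OE (y axis) against that of the KO-labelled strain (left, x axis) and WT (right, x axis), for the genes called higher (red) and lower (blue) in HL_OE. In KO most red points lie right and most blue points left of 0, while in WT both colours spread over both sides and some red points reach below -2.

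Whether the light response differed between strains was tested directly. Against WT it differed in 924 of 9872 genes (9.36%), with 620 (6.28%) higher and 304 (3.08%) lower in OE (edgeR, interaction term on 12 libraries). Of the 924, 308 were themselves called in OE and 616 were not. Among the 620 the median log2 fold change was 0.21 in OE and -1.23 in WT, and 613 of the 618 measured in WT were negative there. Among the 304 the medians were -0.18 in OE and 0.57 in WT. Choosing genes by the sign of the difference itself favours such opposite values. Against KO, edgeR called 0 of 9905 genes (0%), with 563 (5.68%) at an unadjusted p under 0.05, and DESeq2 called 14. These counts do not show that the OE and KO strains respond alike, and the KO libraries had the widest spread of the 3 strains.

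Nuclear genes called for a difference from WT were ranked if their mean reached 10 CPM in the highest OE or WT group. A single group could carry a gene past this rule, as NL_WT did for NO19G02180 and NL_OE for NO26G01820. The differences of these genes are thus partly tied to the rule. The largest positive difference from WT was that of NO16G01110, which stood at 17.5, 21.7 and 27.8 TPM in HL_OE and 14.9, 16.6 and 16.3 TPM in NL_OE. In WT it was listed at 0, and at 2.38 and 1.58 TPM in HL_WT, against 19.1, 32.3 and 27.1 TPM in NL_WT (log2 difference 4.83, SE 0.69, adjusted p = 0.00627, edgeR). The call was lost in the fit of all 18 libraries (adjusted p = 0.222, edgeR). Its counts were not whole in any OE-labelled library, so it may share reads with another gene and its level is uncertain. NO19G02180 had 1.89, 2.88 and 1.82 TPM in HL_OE and 0.81, 0.71 and 0.88 TPM in NL_OE. In WT it had 0.52, 0.44 and 0.77 TPM in HL_WT and 7.25, 5.43 and 1.46 TPM in NL_WT (log2 difference 4.56, SE 0.76, adjusted p = 0.00971, edgeR), a call that was lost with limma voom (0.101).

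In the other direction, NO06G03960 stood at 2.97, 3.603 and 4.21 TPM in HL_OE and 8.54, 8.89 and 8.57 TPM in NL_OE. In WT it stood at 41.1, 22.7 and 26.0 TPM in HL_WT and 10.6, 8.28 and 17.4 TPM in NL_WT (log2 difference -2.60, SE 0.44, adjusted p = 0.00992, edgeR). High light libraries were all below normal light ones in OE and all above them in WT. NO26G01820, described above, differed by -2.58 (SE 0.57, adjusted p = 0.0213, edgeR). That call was lost with limma voom (0.308) and without HL_OE replicate 1 or 2, NL_OE replicate 2 or NL_WT replicate 2 (adjusted p = 0.0591 to 0.0643, edgeR). The count of 924 moved most with single libraries: it was 2469 without HL_WT replicate 1 and 223 without NL_WT replicate 2. It was 254 and 246 without HL_OE replicate 1 and 2, and 515, 167 and 260 without NL_OE replicate 1, 2 and 3. With weights that allow each group its own spread (limma voom) 168 genes were called.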

How the data were processed

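Polyadenylated RNA of 18 flask cultures was sequenced as paired reads of 150 bases, per the labels' protocols. Salmon, STAR, Trim Galore and Picard appear in the submitters' processing notes, without order or role. The sources used here name no version, genome build or annotation. The authors deposited expected counts (estimated read counts per gene, not normalized; at least 96.3% whole in each library, tolerance 1e-09) with 1 column per library. TPM values (scaled for gene length and library total) were deposited by the authors beside them and served for levels. Expected counts were rounded.

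Counts of the 6 OE-labelled libraries were tested alone with edgeR 4.0.16 in R 4.3.3 (filterByExpr, which removed 666 of 10493 genes; TMM factors 0.976 to 1.03; robust quasi-likelihood F test). p-values were adjusted by Benjamini-Hochberg across every tested gene and called under 0.05; they measure only the spread between these cultures. SEs are the log2 fold change over the root of F. Light responses of strains were compared by an interaction term on 12 libraries. Alternatives used DESeq2 1.42.0 and limma 3.58.1.

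Named genes are NO07G02030, the organelle genes and, among called nuclear IDs that reached 10 CPM in the higher group, the 2 that rose most and the 2 that fell most in OE without overlap of the groups. Of nuclear IDs called for a difference from WT, with 10 CPM in the highest OE or WT group, the 2 of each sign that differed most are named. Members, gene lists and rules were chosen with earlier results of these data known. The reference table (ASM5162214v2) held 160 symbols, all of organelle genes.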

Additional observations from a re-analysis of the deposited data

Results flagged for a closer look

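The light response of the OE-labelled strain and that of WT differed by a test of the difference itself in 924 genes, and the 4 named for the size of that difference are NO16G01110 (log2 4.83), NO19G02180 (4.56), NO06G03960 (-2.60) and NO26G01820 (-2.58). For NO16G01110 the KO-labelled libraries held 19.99 TPM in HL_KO replicate 1 and 13.0 TPM in NL_KO replicate 1, and it was listed at 0 in the other 4. For NO26G01820 the difference comes with a single group, NL_OE at 18.3 ± 8.79 TPM, and its call was lost without HL_OE replicate 1 or 2, NL_OE replicate 2 or NL_WT replicate 2 (adjusted p = 0.0591 to 0.0643, edgeR) and with limma voom (0.308). No group has more than 3 libraries, so single libraries were not tested for standing apart.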

How the results depend on the processing

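All 2157 called genes kept their sign with RLE scaling, DESeq2, no filter, the replicate block, 18 libraries or any 1 library left out. These genes were called on the same OE-labelled libraries, and in most of them the light levels did not overlap. Their kept signs thus follow largely from how they were chosen and are no separate check of direction. Calls numbered 1850 with the replicate block (50.5% higher). Correlations of same-numbered deviations were 0.33, -0.36 and 0.14, and not every library correlated best with its own number. With 3 libraries per light level these values cannot settle whether the replicate numbers pair the cultures. Plastid CPM had the same order of replicates at both light levels (41.8, 30.2 and 77.9 in HL_OE, 50.8, 34.0 and 123 in NL_OE). With the block rbcL had an adjusted p of 0.0529 (edgeR) and was still not called. In the fit of all 18 libraries 33 genes were called (11 higher, 22 lower, 16 by at least 2-fold), and against 1.5-fold 37 (4, 33 and 32). Genes called at 2-fold, 96 here, were 45 with a filter at 5 CPM and 51 with limma on log2(TPM + 1), with or without a filter. With 1 library left out, calls ranged from 1148 to 2392, with 497 to 1229 higher, 641 to 1163 lower and 64 to 108 at 2-fold.

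The difference from WT, 924 genes with 67.1% higher, had 367 calls with 18 libraries (314 higher, 53 lower), 1915 with DESeq2 (983 and 932) and 168 with limma voom (101 and 67). Without a filter 530 were lower and 51.4% higher. The block within strain gave 859 (74.0% higher). With 1 library left out calls ranged from 167 to 2469, with 129 to 1422 higher and 38 to 1047 lower. The difference from KO had 14 calls with DESeq2, 1 with the replicate block and 0 to 19 (without NL_KO replicate 1) with 1 library left out. The voom call of NO19G02180 was lost (adjusted p = 0.101), and that of NO16G01110 with 18 libraries (0.222).

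Same-sign shares among genes called at 2-fold were 65.4% of rises and 86.6% of falls in KO, and 23.1% and 87.7% in WT. Over all genes called in OE, of any size, left-out libraries gave 64.4% to 79.7% of rises and 71.4% to 87.7% of falls in KO. In WT they gave 56.6% to 59.7% of rises and 53.2% to 64.8% of falls. NO07G02030 ranged from -0.13 to -0.05. The organelle share difference (HL_OE minus NL_OE, CPM) ranged from -37.2 to 8.73, the plastid part from -37.1 to 7.53 and the mitochondrial part from -3.21 to 2.97; the organelle and plastid differences turned positive without NL_OE replicate 3, and the mitochondrial one, 0.75, was -3.21 without HL_OE replicate 3 and -0.07 without NL_OE replicate 2.

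Uncalled organelle genes changed sign as follows. With 1 library left out, log2 fold changes ranged from -0.81 to 0.73 for psbA and from -1.15 to 0.15 for psbD of the plastid, with the positive values without NL_OE replicate 3. Those of the mitochondrion ranged from -0.51 to 0.37 for atp1, -0.46 to 0.18 for cox1, -0.14 to 0.28 for cox3, -0.040 to 0.35 for nad11 and -0.55 to 0.012 for nad7. With limma atp1 had -0.0038 on log2(TPM + 1), with or without a filter, and -0.033 on log2(TPM + 0.1). Called without HL_OE replicate 3 alone were ftsH (adjusted p = 0.0331), rbcL (0.039) and nad5 (0.0478). The cause was not tested.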
